A study of Mus musculus with 2 samples.

Results

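Expression of 52 genes of DNA replication and mitosis was examined in mouse cells labelled HSC, for hematopoietic stem cells. HSC are the cells from which all blood lineages descend. The genes came from a list by function, drawn up with earlier results of these data known, of 27 genes of S phase and 25 of the G2 and M phases of the cell cycle. A probe set counted for a gene only where the platform annotation named that gene alone. This gave 116 probe sets for 51 of the 52 genes, out of 18193 genes with such a probe set on the array. The expression of the remaining gene, Ccnb1 (cyclin B1), was not analysed here, and only its promoter was examined. The data were 1 Affymetrix array of these cells labelled Sirt6 knockout and 1 array labelled wild type, and the age was 3 months in both. Sirt6 encodes a nuclear NAD-dependent deacylase of histones. The labels do not say how or in which cells the allele was disrupted, whether animals were pooled, or how cells were sorted. With 1 array per genotype, every difference below compares 2 RNA samples and has no replicate check.

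Cells copy their DNA in S phase. The Mcm2-7 helicase is loaded on origins by Cdc6 and Cdt1 in G1, then activated by Cdc45 and the GINS complex, after which polymerases copy the unwound strands. In G2 and M phase, cyclin B and Cdk1 start mitosis, the Plk1 and Aurora kinases build the spindle, and Cdc20 with the anaphase-promoting complex ends it. Transcripts of both programmes are periodic, so their level in a cell population follows the share of cycling cells. Most adult HSC are quiescent, and their progeny cycle more. S phase genes are known targets of E2F factors, while many G2/M genes are controlled by the DREAM and MuvB complexes through a promoter element called CHR, often together with CCAAT boxes bound by NF-Y.

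The promoters of S phase and G2/M genes differed in sequence motifs, a feature that the choice of genes did not use. RefSeq promoter windows (GRCm38.p6, from 250 bases before to 50 after the transcript start) were at hand for 42 of the 52 genes. An E2F motif (TTTGGCGC, TTTCCCGC, TTTGCCGC or TTTCGCGC, on either strand) was present in 9 of 22 S phase genes (40.9%), 1 of 20 G2/M genes (5%) and 2.61% of all 27025 genes with a window. The 9 were Mcm3, Mcm5, Mcm6, Mcm7, Cdc6, Cdt1, Rfc3, Pola1 and Uhrf1, and the G2/M gene was Cdk1. A CHR motif (TTTGAA or TTCGAA, either strand) was present in 16 of 20 G2/M genes (80%), 4 of 22 S phase genes (18.2%) and 21.7% of all genes. The G2/M genes with a window and no CHR match were Ccnb1, Cenpe, Birc5 and Nusap1. A CCAAT motif on either strand was in 18 of 20 G2/M genes (90%), 15 of 22 S phase genes (68.2%) and 41.1% of all genes. CHR and CCAAT occurred together in 16 of 20 G2/M genes, against 4 of 22 S phase genes and 9.65% of all genes. None of these motifs contains another, and a gene with several windows counted if any window held the motif. A match is a string of letters, not a bound site.

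The windows below belong to the S phase and G2/M gene with the largest ratio between the arrays (Tyms, Plk1) and with the ratio nearest 0 (Cdt1, Birc5) among genes with a window. They are written 5′ to 3′ on the gene's strand, with motif matches in capitals. Tyms, thymidylate synthase, lies on the minus strand at chr5:30073576-30073875 and held no match.
Tyms: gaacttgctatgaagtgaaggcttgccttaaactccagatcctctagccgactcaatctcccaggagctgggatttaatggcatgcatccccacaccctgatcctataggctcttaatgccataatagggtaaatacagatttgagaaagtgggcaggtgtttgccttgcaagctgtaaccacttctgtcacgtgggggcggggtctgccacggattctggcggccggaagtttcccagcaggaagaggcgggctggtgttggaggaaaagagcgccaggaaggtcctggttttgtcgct
Cdt1, the origin licensing factor, lies on the plus strand at chr8:122567765-122568064. It held 1 E2F match, starting at base 33 of the transcript.
Cdt1: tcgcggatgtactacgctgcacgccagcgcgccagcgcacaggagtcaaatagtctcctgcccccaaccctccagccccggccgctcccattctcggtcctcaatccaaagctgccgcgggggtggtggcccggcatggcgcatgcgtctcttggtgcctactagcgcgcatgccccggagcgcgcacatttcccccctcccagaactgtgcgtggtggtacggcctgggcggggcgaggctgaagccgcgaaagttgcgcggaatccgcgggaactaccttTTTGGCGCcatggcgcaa
Plk1, the Polo-like kinase of mitosis, lies on the plus strand at chr7:122159185-122159484. It held a CCAAT match that starts 14 bases before the transcript start and a CHR match at base 31 of the transcript.
Plk1: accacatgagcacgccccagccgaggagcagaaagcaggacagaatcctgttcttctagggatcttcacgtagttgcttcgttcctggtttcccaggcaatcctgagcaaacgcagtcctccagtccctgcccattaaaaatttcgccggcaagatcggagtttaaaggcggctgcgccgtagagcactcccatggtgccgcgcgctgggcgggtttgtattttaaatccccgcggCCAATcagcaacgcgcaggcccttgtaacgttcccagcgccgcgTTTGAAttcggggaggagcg
Birc5 (survivin, a subunit of the Aurora B complex) lies on the plus strand at chr11:117848987-117849286 and held no match.
Birc5: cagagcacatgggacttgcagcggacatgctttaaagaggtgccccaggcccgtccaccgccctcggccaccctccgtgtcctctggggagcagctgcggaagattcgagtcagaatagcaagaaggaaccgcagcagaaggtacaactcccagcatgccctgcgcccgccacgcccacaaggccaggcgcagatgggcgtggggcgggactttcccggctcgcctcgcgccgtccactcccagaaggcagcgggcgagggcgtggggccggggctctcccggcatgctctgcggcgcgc

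Both arrays carried signal for the replication and mitosis genes. A floor for dim probe sets was set at the median signal of all probe sets (60.5), and all 51 genes lay above it on both arrays with their brightest probe set. Of all 18193 genes, 11547 lay above it on at least 1 array. The 27 S phase genes had signals from 66.1 to 6146 (median 1151) on the knockout array and from 101 to 6878 (median 1162) on the wild-type array. The 24 G2/M genes had signals from 94.35 to 3644 (median 816) on the knockout array and from 113 to 3738 (median 766) on the wild-type array. At least 1000 signal units were read for 14 S phase and 10 G2/M genes, the same numbers on both arrays. By the mean log2 signal of both arrays, 14 of the 51 genes lay between 1024 and 2048 units and 10 lay higher. Of the 11547 genes, 1340 lay in the first range and 647 higher. Summed over genes, S phase signal was 46548 on the knockout array and 46065 on the wild-type array, and G2/M signal was 27260 on the knockout array and 27217 on the wild-type array. The sums therefore differed by 1.05% and 0.156%. Bright probe sets weigh most in such sums, and differences in opposite directions cancel. Pcna, for 1, read 6146 on the knockout array and 6878 on the wild-type array. Mcm7 went the other way, at 5444 on the knockout array and 5155 on the wild-type array. Signals of different probe sets depend on their probes and do not order the genes by transcript number. In bulk RNA, fewer cycling cells and less RNA per cycling cell cannot be told apart.

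**Figure D1:**
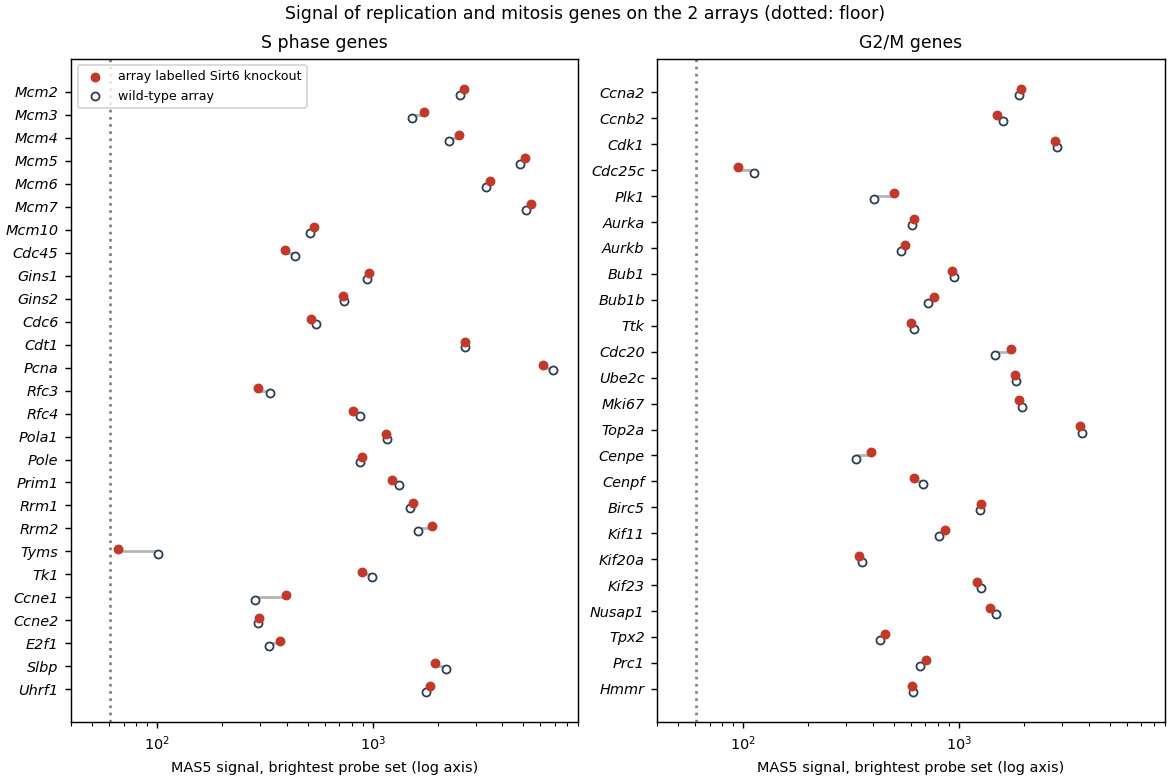
MAS5 signal (log axis) of the brightest probe set of each gene on the array labelled Sirt6 knockout (filled red) and the wild-type array (open), with S phase genes left and G2/M genes right and the floor of 60.5 as a dotted line. The paired points lie close together, and Tyms and Ccne1 have the widest gaps.

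The targeted gene did not check the genotype labels. The single Sirt6 probe set read 174 on the knockout array and 124 on the wild-type array, 1.40-fold higher under the knockout label. Which part of the transcript it covers relative to the disrupted part is unknown here. Every direction below therefore rests on the label "knockout". The arrays had nearly equal scale as deposited, with medians over 45037 probe sets of 60.7 on the knockout array and 60.8 on the wild-type array. Ratios are given as log2 of knockout over wild type, and a value of 0.58 is 1.5-fold.

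Of the 51 genes, 0 were at least 1.5-fold higher and 1 was at least 1.5-fold lower on the knockout array. Among all 11547 genes measured above the floor, 1.71% were higher and 2.63% lower by that size, 4.35% in all. The S phase genes had a median log2 ratio of 0.03, with 16 positive and 11 negative values. The G2/M genes had a median of -0.02, with 11 positive and 13 negative values. Over all measured genes the median was 0.0023 and 50.4% were positive, so neither group was displaced from the centre of the arrays by more than 0.03. At a smaller size, a log2 ratio of at least 0.32 in either direction, 2 of 51 genes passed (Tyms and Ccne1, both S phase), against 15.8% of all measured genes.

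Most of the genes were bright. Ratios of dim probe sets scatter more on these arrays, and 49 of the 51 genes had a mean log2 signal of at least 8 (256 signal units). Among these 49 genes 1 passed a log2 ratio of 0.32 in either direction, against 9.38% of the 6784 measured genes as bright. The median absolute log2 ratio was 0.08 in the 49 genes and 0.11 in the 6784. By brightness, it was 0.17 in the 9 genes with signals from 256 to 512, where all genes had 0.13. It was 0.06 in the 16 genes from 512 to 1024 (all genes 0.11), 0.06 in the 14 from 1024 to 2048 (all genes 0.09) and 0.07 in the 10 brighter ones (all genes 0.06). The ratios of the replication and mitosis genes were thus smaller than those of all genes in the middle bands and slightly larger in the lowest and highest of these 4 bands. No test was possible.

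**Figure D2:**
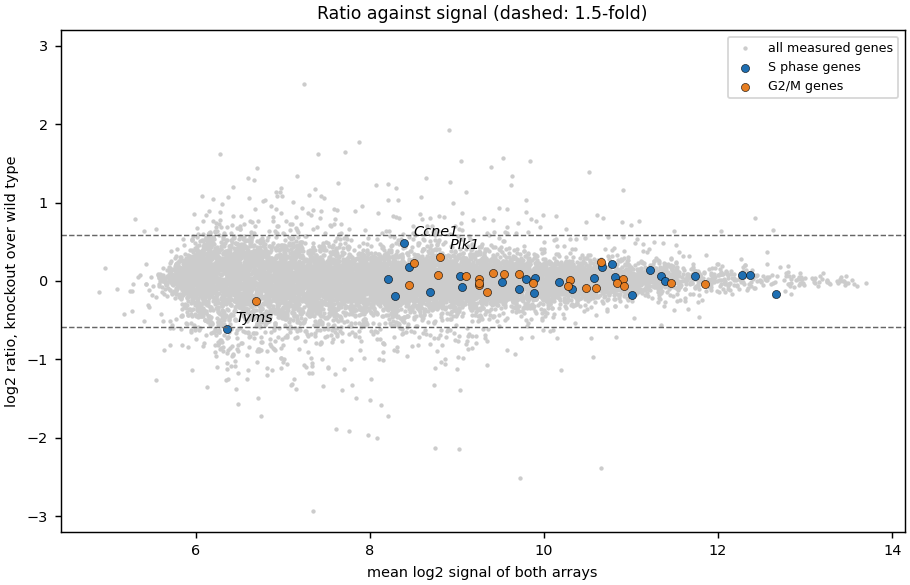
log2 ratio of knockout over wild type against the mean log2 signal of both arrays, 1 point per gene, for all 11547 measured genes (grey), S phase genes (blue) and G2/M genes (orange), with 1.5-fold as dashed lines. Grey points spread more at low signal, and of the coloured points Tyms alone lies past a dashed line.

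The replicative helicase genes were nearly level, with 8 of 10 slightly higher on the knockout array and a median log2 ratio of 0.06. Over all measured genes, 50.4% of ratios were positive. Of the 8, Mcm2, Mcm3 and Mcm4 alone had more than 1 probe set above the floor on both arrays with all of them higher. The helicase subunit Mcm2 read 2658 on the knockout array and 2547 on the wild-type array (0.06). Mcm4 read 2503 on the knockout array and 2272 on the wild-type array (0.14). Mcm5 read 5115 on the knockout array and 4831 on the wild-type array (0.08). These differences are below 0.22, the SD of ratios within genes that have several probe sets (4632 genes). That SD measures disagreement between probe sets on the same arrays. It is not the error of a ratio between RNA samples, which could not be measured with 1 array per genotype. Within S phase genes alone the SD was 0.11, and the ratios of Mcm3, Mcm4 and Cdc45 exceeded that in size. Mcm6 read 3493 on the knockout array and 3339 on the wild-type array (0.07). Mcm7 read 5444 on the knockout array and 5155 on the wild-type array (0.08). Mcm3 had the largest helicase ratio, 1725 on the knockout array and 1526 on the wild-type array (0.18). All 5 of its probe sets were higher on the knockout array, from 0.02 to 0.41. Those of Mcm5 ran from -0.21 to 0.22, of Mcm6 from -0.06 to 0.07 and of Mcm7 from -0.07 to 0.12, so their directions were not settled. Mcm10, which helps to activate the helicase, read 537 on the knockout array and 514 on the wild-type array (0.06). The GINS subunit genes Gins1 and Gins2 had ratios of 0.04 and -0.01. Cdc45, the activating partner of the helicase, had the lowest ratio of the group, at 393 on the knockout array and 434 on the wild-type array (-0.14), and its other probe set gave -0.22.

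The licensing factors had ratios within the SD between probe sets of 0.22. Cdt1 read 2696 on the knockout array and 2688 on the wild-type array (0.0039). Cdc6 read 519 on the knockout array and 549 on the wild-type array (-0.08). Genes of DNA synthesis were mostly slightly lower, with 5 of 6 negative ratios and a median of -0.10. Over all measured genes 50.4% of ratios were positive, and a difference between helicase and synthesis genes was not tested. Pcna, the sliding clamp, read 6146 on the knockout array and 6878 on the wild-type array (-0.16). The clamp loader subunit gene Rfc3 read 294 on the knockout array and 335 on the wild-type array (-0.19). Its fellow subunit gene Rfc4 read 810.0 on the knockout array and 870 on the wild-type array (-0.10). The second probe sets of Rfc3 and Rfc4, at -0.11 and -0.13, pointed the same way. Of the polymerase alpha-primase genes, Prim1 had a ratio of -0.10 and Pola1 of -0.01. Pole, the catalytic subunit of the leading-strand polymerase, was at 0.03.

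Among enzymes of nucleotide supply, Tyms, which makes thymidylate, was the 1 gene past 1.5-fold. Its brightest single-gene probe set read 66.1 on the knockout array and 101 on the wild-type array (log2 -0.62, 1.54-fold lower). Both readings are dim, and the knockout one lies just above the floor of 60.5. The call ended with the floor at percentile 75, where Tyms was no longer measured, and with a pseudocount of 1 floor, where its log2 ratio was -0.36. The other 3 Tyms probe sets were below the floor on both arrays. A further probe set, named after its value was seen and annotated to both Tyms and the pseudogene Tyms-ps, read 965 on the knockout array and 1001 on the wild-type array (-0.05). It cannot be assigned to either gene. The ribonucleotide reductase genes Rrm1 and Rrm2 had ratios of 0.04 and 0.22. The 3 probe sets of Rrm2 ran from -0.05 to 0.22, so its direction was not settled. Tk1, the S phase thymidine kinase, read 894 on the knockout array and 993 on the wild-type array (-0.15).

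Ccne1, cyclin E1, which activates Cdk2 at the entry to S phase, was the S phase gene with the largest ratio toward the knockout array. It read 397 on the knockout array and 284 on the wild-type array (log2 0.48, 1.39-fold higher). Its second probe set read 175 on the knockout array and 122 on the wild-type array (0.51). The 2 probe sets thus gave nearly the same ratio, farther from 0 than the SD between probe sets of 0.22. The related cyclin Ccne2 was level, at 297 on the knockout array and 293 on the wild-type array (0.02). E2f1, an activating factor of S phase transcription, read 372 on the knockout array and 329 on the wild-type array (0.17). All 3 of its probe sets were higher, from 0.11 to 0.20. Slbp, which binds the stem-loop of histone mRNA, gave -0.18, and 0.05 on a dimmer probe set. Uhrf1, which guides maintenance of DNA methylation, gave 0.06 and -0.12.

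The cyclin and Cdk genes of mitosis were level. Ccna2, cyclin A2, read 1942 on the knockout array and 1911 on the wild-type array (0.02). Ccnb2, cyclin B2, read 1499.9 on the knockout array and 1598 on the wild-type array (-0.09). Cdk1 read 2797 on the knockout array and 2844 on the wild-type array (-0.02). The phosphatase gene Cdc25c, which activates Cdk1, was dim, at 94.35 on the knockout array and 113 on the wild-type array (-0.26). Its second probe set gave 0.25, so the direction was not settled.

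Plk1 had the largest ratio of the G2/M genes, at 499 on the knockout array and 402 on the wild-type array (log2 0.31, 1.24-fold higher), and rests on a single probe set. The Aurora kinase genes were level, with Aurka at 617 on the knockout array and 604 on the wild-type array (0.03). Aurkb gave 0.07, and -0.08 on a dimmer probe set. The spindle checkpoint kinase genes Bub1 and Ttk had ratios of -0.03 and -0.05, and their second probe sets gave -0.18 and -0.15. Bub1b, which encodes the checkpoint protein BubR1, ran from -0.23 to 0.08 over 3 probe sets. Cdc20, the activator of the anaphase-promoting complex, read 1754 on the knockout array and 1478 on the wild-type array (0.25). All 3 Cdc20 probe sets were higher on the knockout array, from 0.14 to 0.25. Ube2c, the ubiquitin-conjugating enzyme of that complex, was level at 1814 on the knockout array and 1842 on the wild-type array (-0.02).

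The genes most used as proliferation markers did not separate the arrays. Mki67, the gene of the Ki-67 antigen, read 1893 on the knockout array and 1973 on the wild-type array (-0.06). Top2a, the topoisomerase that untangles sister chromatids, read 3644 on the knockout array and 3738 on the wild-type array (-0.04), and its dimmer probe set gave -0.33. Birc5 read 1265 on the knockout array and 1256 on the wild-type array (0.01). The kinetochore genes pointed opposite ways: Cenpe had ratios of 0.23 and 0.10 on 2 probe sets, while the 3 of Cenpf ran from -0.22 to -0.03. The motors and spindle proteins were within 0.10 on their brightest probe sets. The kinesin genes Kif11, Kif20a and Kif23 had ratios of 0.09, -0.05 and -0.06. The microtubule-associated genes Tpx2, Prc1, Nusap1 and Hmmr had 0.08, 0.10, -0.09 and -0.02. On dimmer probe sets Nusap1 gave 0.22 and Hmmr reached 0.17, so the direction of neither was settled.

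Probe sets of the same gene showed how far readings on the same 2 arrays disagreed. Of 116 probe sets, 97 lay above the floor on both arrays, and their log2 ratios ran from -0.62 to 0.51. The probe sets all pointed one way in 22 of 33 genes with at least 2 such probe sets (66.7%), 13 higher and 9 lower, while over all genes the share was 52.4%. The SD of ratios within a gene was 0.11 for S phase genes and 0.13 for G2/M genes, against 0.22 over all genes. Neither comparison with all genes was matched for brightness or for the number of probe sets per gene. On their brightest probe set, 6 of 51 genes were farther from 0 than 0.22: Ccne1, Plk1, Cdc20 and Cenpe higher, Tyms and Cdc25c lower. Of all measured genes, 28.3% were that far from 0, so the count of 6 lies below the background. Among genes with a mean log2 signal of at least 8, it was 4 of the 49, against 19.8% of all genes as bright. Of the 6, Ccne1, Cdc20 and Cenpe had more than 1 probe set above the floor and the same direction on each. The choice of 0.22 sets this count. Against the S phase SD of 0.11, further S phase genes would pass, Pcna (-0.16) and E2f1 (0.17) among them. Neither SD holds the error between RNA samples.

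**Figure D3:**
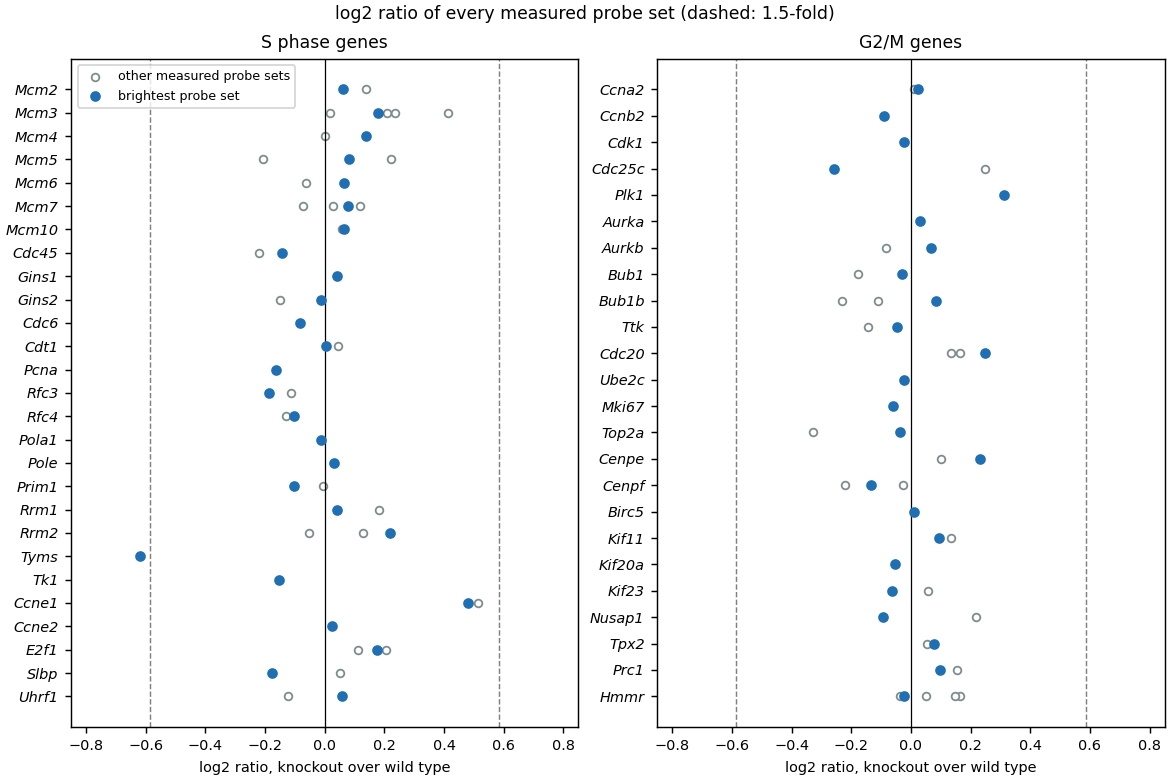
log2 ratio of knockout over wild type for every measured probe set, the brightest of each gene in blue and others open, with S phase genes left, G2/M genes right and 1.5-fold as dashed lines. All points but that of Tyms lie between the dashed lines, and several genes have probe sets on both sides of 0.

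Further genes of both programmes, which were not in the list of 52, gave a like picture on their brightest probe sets. The counts and medians here use those probe sets. Of 53 other replication genes, 51 were measured, with 0 past 1.5-fold and a median log2 ratio of -0.02. The polymerase delta genes Pold1 and Pold3 had ratios of -0.34 and -0.26, the helicase gene Mcm8 of -0.32, and Ticrr, which helps origins to fire, of 0.31. Both Ticrr probe sets were higher on the knockout array, while the second Pold1 probe set gave -0.08. Of 71 other mitosis genes, 68 were measured, with 1 at least 1.5-fold higher, 1 lower and a median of 0.03. Among all 11547 measured genes, 1.71% were higher and 2.63% lower by that size, so these counts do not set either list apart. Kifc1, a minus-end kinesin, read 547 on the knockout array and 312 on the wild-type array (0.81). Knl1, a kinetochore scaffold gene, read 216 on the knockout array and 372 on the wild-type array (-0.79). Each of these rests on 1 measured probe set. Mybl2, the B-Myb partner of MuvB, had a ratio of 0.28, with 0.25 on its second probe set, and the kinesin gene Kif18a had -0.28. Dimmer probe sets above the floor spread more widely. Their lows were -1.31 for Rfc1, -1.17 for Smc2, -0.80 for Ncapg, -0.69 for Smc4, -0.67 for Cdca2 and -0.59 for Ckap2l. Toward the knockout array they reached 0.58 for Cdc27 and 0.55 for Zw10.

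Markers of cell type differed between the same arrays. All 10 HSC markers in the table exceeded the floor, and their summed signal was 12904 on the knockout array and 14886 on the wild-type array. Of them, 4 were at least 1.5-fold lower (Fgd5, Hlf, Procr and Mecom, named after their values were seen) and 0 higher, with a median log2 ratio of -0.30. Their ratios were negative in 7 and positive in 3, which were Gata2 (0.20), Cd34 (0.15) and Kit (0.03). The stem cell factor receptor gene Kit was level at 1746 on the knockout array and 1709 on the wild-type array. Of 12 measured markers of granulocytes and their progenitors, 10 were higher by at least 1.5-fold and 0 lower, and the summed signals were 37246 on the knockout array and 23234 on the wild-type array. Erythroid markers summed to 5873 on the knockout array and 6074 on the wild-type array, with 1 of 6 measured genes higher and 1 lower. Of these 6 ratios 5 were negative, with Car1 lowest at -1.96. The 1 positive was Tfrc, at 2608 on the knockout array and 1595 on the wild-type array. B cell markers summed to 1155 on the knockout array and 554 on the wild-type array, with 2 of 5 higher. Monocyte and macrophage markers had a median log2 ratio of -0.10, with 3 positive and 4 negative ratios and 1 of 7 at least 1.5-fold higher. Their summed signal was 2576 on the knockout array and 1546 on the wild-type array, mostly through F13a1 at 1273 on the knockout array and 428 on the wild-type array. Endothelial and stromal markers summed to 441 on the knockout array and 889 on the wild-type array, with 2 of 4 lower and 1 higher. The gap in the sums came mostly through Cxcl12, at 57.4 (below the floor) on the knockout array and 461 on the wild-type array. Of 5 annotated T cell markers, the Cd3 chain genes and Cd4 stayed below the floor and Cd8a alone exceeded it. The part of these cell type differences in the ratios of replication and mitosis genes was not tested.

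**Figure D4:**
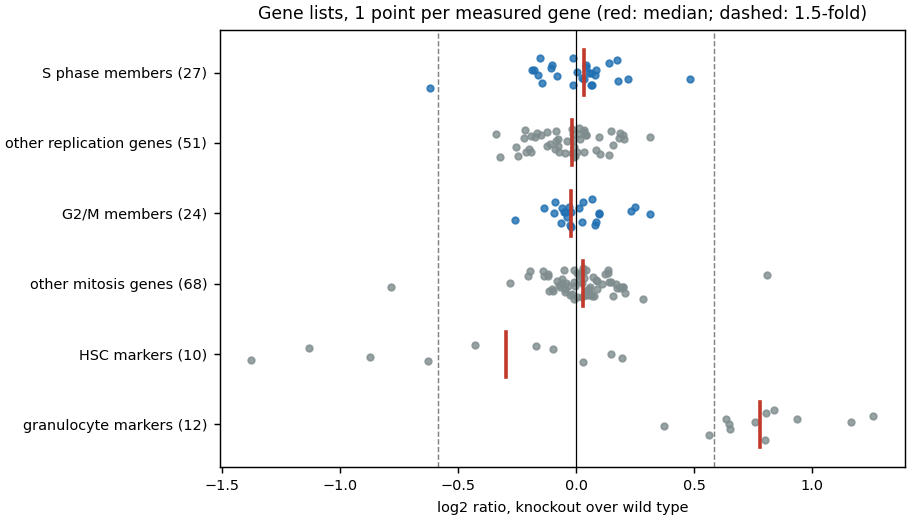
log2 ratio of knockout over wild type, 1 point per measured gene, for the S phase and G2/M genes (blue), the other replication and mitosis genes, HSC markers and granulocyte markers (grey), with the median of each list in red and 1.5-fold as dashed lines. The 4 cell cycle lists have medians between -0.02 and 0.03, while HSC markers have a median of -0.30 and granulocyte markers of 0.78.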

How the data were processed

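RNA of mouse cells labelled HSC was measured on 2 Affymetrix arrays, 1 per genotype. The deposited values are linear intensities, 1 per probe set, and MAS5 is named per the submitters' processing notes. MAS5 scaling removes any difference in total RNA per cell. No scaling target and no detection calls were at hand.

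The platform annotation gave a single gene for 34945 of 45037 probe sets. The brightest probe set by mean log2 signal stood for its gene. The floor was the median of that mean over all probe sets (signal 60.5). A gene was measured if above it on at least 1 array, and lower values were raised to it. Symbols were matched through RefSeq (GRCm38.p6). With 1 array per genotype no p-value, SD between samples or interval was computed, and the number of arrays limits the precision. Software was Python 3.11.15, numpy 2.4.6, pandas 2.3.3, statsmodels 0.14.6 and matplotlib 3.10.9, and were tested on simulated data. Alternatives were 3 other normalizations, other floors, a pseudocount, the median over probe sets, dropping the less specific _x_at and _s_at probe sets, and other fold sizes. All members were named, and the 4 genes with the largest ratio of each list of other genes. The members and lists were chosen with earlier results of these data known.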

Additional observations from a re-analysis of the deposited data

How the results depend on the processing

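The S phase count of 1 gene past 1.5-fold was 0 with the floor at percentile 75, 0 with a pseudocount of 1 floor and 0 at a size of 2-fold, and it was 2 at a size of log2 0.32. The G2/M count was 0 under all 9 alternatives of normalization, floor, pseudocount and probe set choice, and also at sizes of log2 0.32 and 2-fold. The S phase median log2 ratio ran from 0.02 to 0.04 and the G2/M median from -0.02 to -0.0039 under those 9. Of the other mitosis genes, 1 passed 1.5-fold without _x_at and _s_at probe sets and 0 passed 2-fold. Of the other replication genes, 2 passed log2 0.32. Among single members, 3 values moved by more than 0.22. Tyms was at -0.36 with the pseudocount, Cdc25c at -0.0045 as the median over probe sets, and Mcm3 at 0.41 without _x_at and _s_at probe sets. The cause was not tested beyond the construction of these settings, which damp dim values or use other probe sets. The ratio kept 1 sign under every alternative in which a gene had a value for 45 of 51 members, and Aurkb, Bub1b, Cdt1, Hmmr, Nusap1 and Uhrf1 took both signs. No paired analysis was possible because each genotype had 1 array. Dim probe sets limit what can be read for Tyms and Cdc25c, which lie close to the floor.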
